A study of Mus musculus with 4 samples.

Results

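Galectins are lectins that bind beta-galactosides, the galactose-ended sugars of glycoproteins and glycolipids, and 4 galectin genes are described here: Lgals1, Lgals3, Lgals8 and Lgals9. They were chosen by gene symbol, with the differences between 5FU and Basal arrays already known, and each was read from the probe set naming that gene alone with the highest mean over the arrays. These are 4 of 22180 genes named by such a probe set. The cells were LSK cells (a marrow fraction without lineage markers and with Sca-1 and c-Kit, which holds blood stem cells and early progenitors). They came from C57/B6 males, 4 months old. AMKO 5FU and Ctrl 5FU cells were taken at day 8 after an injection of 150 mg/kg of 5FU (5-fluorouracil, a drug toxic to cycling cells), and AMKO Basal and Ctrl Basal cells at day 0. Each of these 4 groups has 1 array, so there is no replicate error for any value and no difference was tested. The meaning of AMKO, its genetic change and the number of mice behind an array are not stated in the labels.

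Galectins are made without a signal peptide, act inside cells and leave them by a non-classical route, and crosslink glycoproteins at the cell surface. Galectin-1, of the prototype class, has a single carbohydrate-binding domain and forms dimers. Galectin-3, the chimera type, joins one such domain to a long tail through which it assembles into larger complexes, and it is known from macrophages as Mac-2. Galectin-8 and galectin-9, the tandem-repeat type, carry a pair of different domains on a single chain. In blood, galectins are known for effects on lymphocyte survival, cell adhesion and the handling of damaged lysosomes.

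All values below are the authors' deposited values read as log2 expression, and genes were retained if at least 1 array reached 5.475, the median of all values (the floor). This left 14061 genes, and all 4 galectins lay at or above the floor in all 4 arrays. Kit, which encodes the c-Kit sort marker, lay between 11.08 and 11.87 in the arrays; Ly6a, which encodes Sca-1, has no value here. Several marker sets set the Ctrl arrays apart. Over 14 neutrophil genes the mean log2 value was 5.37 in AMKO 5FU, 5.26 in AMKO Basal, 10.43 in Ctrl 5FU and 5.28 in Ctrl Basal, and the lineage marker Itgam, which the sort should deplete, was at 9.93 in Ctrl 5FU against 5.61 to 6.40 elsewhere. Over 9 skeletal muscle genes it was 5.61 in AMKO 5FU, 5.72 in AMKO Basal, 6.08 in Ctrl 5FU and 8.58 in Ctrl Basal. Xist, the RNA of the inactive X chromosome, was at 7.65 in Ctrl 5FU and 3.97 to 4.41 in the other arrays, although the labels give all mice as male, and the Y-linked gene Eif2s3y lay between 8.76 and 9.36 in all 4. Values from the AMKO arrays are therefore given beside each Ctrl value, since they use neither of these Ctrl arrays.

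The windows from 250 bases before to 50 bases after the RefSeq start (GRCm38.p6) are shown for Lgals3, Lgals8 and Lgals9, the 3 of the 4 galectins matched by symbol in the promoter table; Lgals1 was not matched. Capitals mark matches, on either strand, to GGGCGG (a GC box), TATAAA (a core promoter box), CCAAT (bound by the factor NF-Y), TGANTCA (an AP-1 element), GAGGAA (a core of PU.1 sites) and a pair of GAAA half-sites 2 bases apart (an interferon regulatory factor element), and no matches overlapped. Lgals3 lies at chr14:47373610-47373909 on the plus strand, Lgals8 at chr13:12461689-12461988 on the minus strand and Lgals9 at chr11:78984875-78985174 on the minus strand.
Lgals3: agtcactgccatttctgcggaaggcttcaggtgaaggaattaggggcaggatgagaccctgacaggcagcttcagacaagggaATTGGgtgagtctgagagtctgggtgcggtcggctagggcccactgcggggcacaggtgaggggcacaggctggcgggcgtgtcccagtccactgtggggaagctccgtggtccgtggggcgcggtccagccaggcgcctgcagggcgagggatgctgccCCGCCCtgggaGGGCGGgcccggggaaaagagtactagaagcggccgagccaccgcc
Lgals8: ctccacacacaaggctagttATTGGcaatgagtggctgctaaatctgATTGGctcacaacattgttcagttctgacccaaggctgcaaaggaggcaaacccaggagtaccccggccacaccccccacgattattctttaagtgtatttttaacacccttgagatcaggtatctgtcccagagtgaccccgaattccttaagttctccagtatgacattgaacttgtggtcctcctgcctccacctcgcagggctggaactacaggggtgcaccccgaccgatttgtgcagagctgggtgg
Lgals9: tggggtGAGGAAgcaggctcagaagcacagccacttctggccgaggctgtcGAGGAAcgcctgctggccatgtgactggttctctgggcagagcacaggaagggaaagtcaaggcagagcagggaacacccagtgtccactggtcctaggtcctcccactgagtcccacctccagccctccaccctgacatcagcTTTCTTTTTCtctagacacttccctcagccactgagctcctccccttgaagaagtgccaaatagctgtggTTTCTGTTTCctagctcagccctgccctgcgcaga
The Lgals3 window was 67.0% G and C and held 2 GGGCGG matches, an element found in 35.7% of the 32851 windows in the table, and 1 CCAAT match. The Lgals8 window was 51.7% G and C and held 2 CCAAT matches, an element of 37.4% of windows. The Lgals9 window was 58.0% G and C, with 2 GAGGAA matches (28.3% of windows) and 2 pairs of GAAA half-sites, read on the other strand as TTTC (3.44% of windows). TATAAA (13.6% of windows) and TGANTCA (7.81%) were in none of the 3 windows. These are letter matches and not tested binding sites.

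Lgals1 was high in both 5FU arrays and low in both Basal arrays. Its log2 value was 11.17 in AMKO 5FU and 6.96 in AMKO Basal, and 11.01 in Ctrl 5FU and 7.53 in Ctrl Basal. The lowest 5FU value thus lay 3.48 above the highest Basal value. This is 18.5-fold higher after 5FU in AMKO and 11.2-fold higher in Ctrl. Of the 14061 genes, 4 had a larger 5FU difference in AMKO and 59 in Ctrl. Within each time the genotypes lay closer together, with AMKO minus Ctrl at 0.16 after 5FU and -0.57 at Basal. The Basal value uses the Ctrl Basal array with its high muscle markers, and the part of muscle in it was not tested. In bulk RNA of a sorted fraction, more cells with the transcript and more transcript in each cell cannot be told apart.

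Lgals1 is abundant in many stromal cells and in macrophages, so markers of these cells and of other blood cells were read beside it. Over 11 stromal and endothelial genes the mean log2 value was 5.58 in AMKO 5FU and 5.70 in AMKO Basal, and 5.52 in Ctrl 5FU and 5.67 in Ctrl Basal. Of the 7 of them past the floor, 0 were at least 2-fold higher after 5FU and 1 lower in each genotype. Over all genes, 4.69% were higher and 3.55% lower in AMKO, and 5.02% higher and 4.46% lower in Ctrl. With 7 genes, nothing is read from these counts. The lower gene was Kdr, an endothelial growth factor receptor, with -1.33 in AMKO and -2.86 in Ctrl, while the collagen genes Col1a1, Col1a2 and Col3a1 lay between 5.88 and 6.46 in all arrays. Over 19 monocyte and macrophage genes the mean was 5.65 in AMKO 5FU and 5.41 in AMKO Basal, and 6.65 in Ctrl 5FU and 5.26 in Ctrl Basal. Of the 14 past the floor, 1 in AMKO and 9 in Ctrl were at least 2-fold higher after 5FU, beside 4.69% of all genes in AMKO and 5.02% in Ctrl. Of those 9, 4 (Ccr2, Ly6c2, F13a1 and C1qc) passed the floor only through Ctrl 5FU, so a high value there was fixed by the filter.

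Some other markers differed along with Lgals1 in both genotypes. Cd48, a surface protein low on stem cells and present on many progenitors, was at 9.49 in AMKO 5FU and 5.15 in AMKO Basal, and at 9.96 in Ctrl 5FU and 4.99 in Ctrl Basal. Its 5FU difference was 4.34 in AMKO and 4.97 in Ctrl. Both Basal values of Cd48 lay under the floor, so the size of these differences is uncertain. Of the 6 stem and progenitor markers past the floor, Cd48 included, 3 were higher and 3 lower in each genotype. Their medians were 0.08 in AMKO and 0.28 in Ctrl. The higher ones besides Cd48 were Cd34 (0.64 in AMKO and 1.03 in Ctrl) and Flt3 (0.52 and 1.57). The lower ones were Kit (-0.71 in AMKO and -0.76 in Ctrl), Slamf1 (-0.36 and -0.48) and Procr (-0.70 and -1.64). Over 7 megakaryocyte and platelet genes the mean log2 value was 8.19 in AMKO 5FU and 8.97 in AMKO Basal, and 7.86 in Ctrl 5FU and 8.86 in Ctrl Basal. Of the 6 past the floor, 4 in each genotype were at least 2-fold lower after 5FU, beside 3.55% of all genes in AMKO and 4.46% in Ctrl. The medians of the 6 were -1.12 in AMKO and -1.18 in Ctrl. Itga2b, Vwf and Mmrn1 were past 2-fold in both genotypes. Gp9 was past it only in AMKO (-1.21, with -0.78 in Ctrl) and Ppbp only in Ctrl (-1.33, with -0.35 in AMKO). The other markers past 2-fold the same way in both genotypes, besides Kdr, were the neutrophil genes S100a8 (1.21 in AMKO and 5.79 in Ctrl) and Cxcr2 (1.12 in AMKO and 4.02 in Ctrl), the cytotoxic granule gene Nkg7 (1.77 in AMKO and 1.86 in Ctrl) and Vcam1 of the macrophage list. Vcam1, an adhesion molecule, was at 5.56 in AMKO 5FU and 4.40 in AMKO Basal, and at 6.75 in Ctrl 5FU and 5.25 in Ctrl Basal. Its Basal values lay under the floor and its AMKO 5FU value next to it. S100a8 in AMKO was at 5.48 after 5FU, next to the floor, and at 4.27 at Basal, under it. In AMKO, 7 of the 14 neutrophil genes were higher after 5FU and 7 lower. Of the 4 T and NK genes past the floor, Nkg7 included, 1 was higher in AMKO and 3 lower. The part of a change in the make-up of the sorted cells in the Lgals1 difference was not tested.

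**Figure D1:**
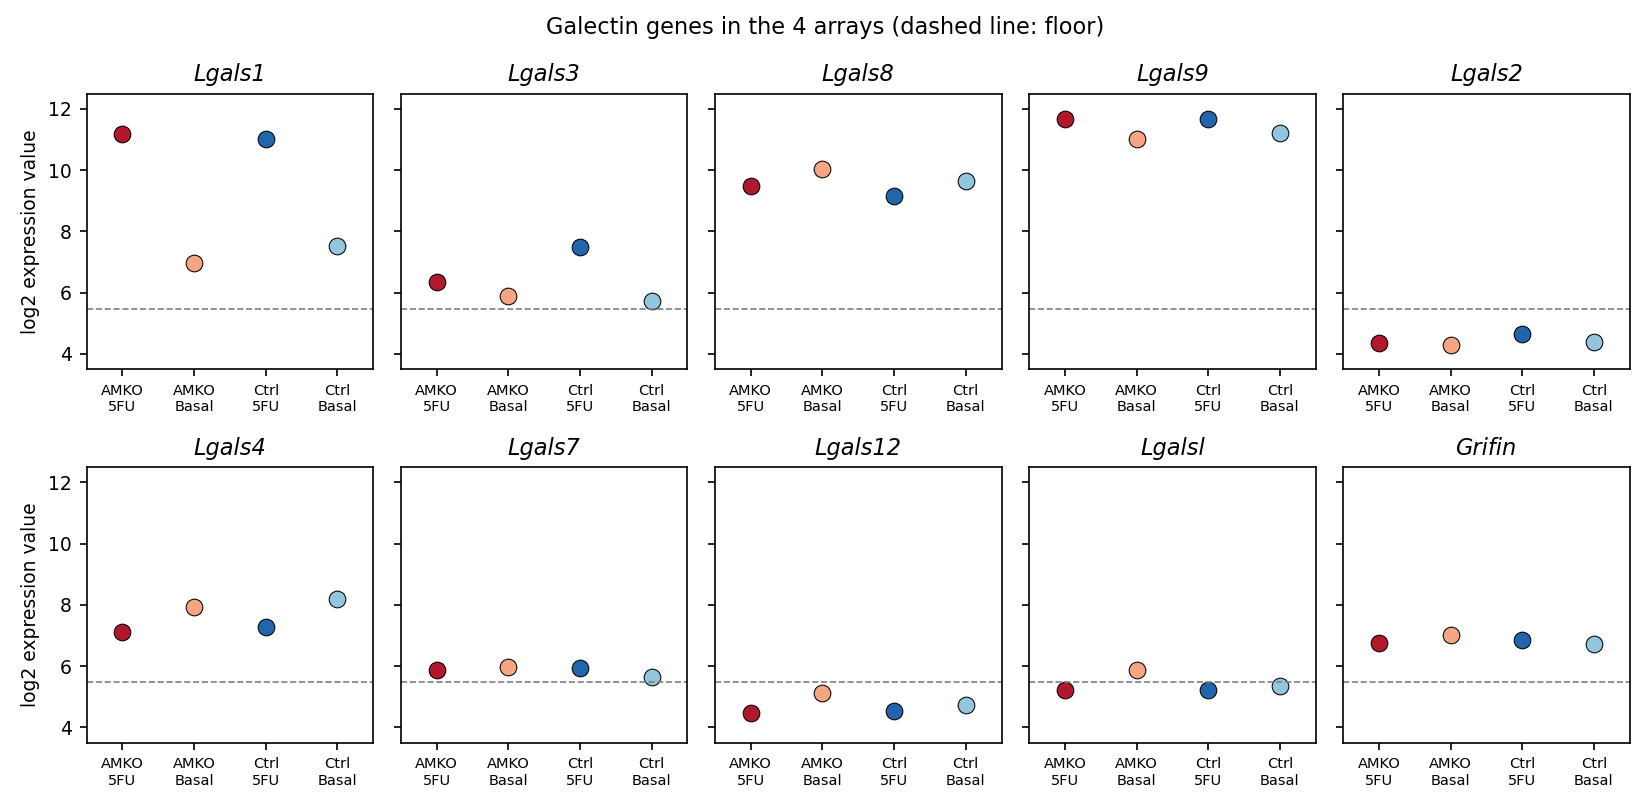
Log2 expression value (y axis) of the 10 measured galectin family genes in the AMKO 5FU, AMKO Basal, Ctrl 5FU and Ctrl Basal arrays (x axis), 1 point per array, with the floor of 5.475 dashed. Lgals1 sits at 11.17 and 11.01 in the 5FU arrays and at 6.96 and 7.53 in the Basal arrays, while Lgals2 and Lgals12 stay under the floor.

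Lgals3 was highest in the Ctrl 5FU array. Its log2 value was 6.36 in AMKO 5FU and 5.90 in AMKO Basal, and 7.50 in Ctrl 5FU and 5.73 in Ctrl Basal. The 3 other arrays spanned 0.63, all within 0.885 of the floor, and Ctrl 5FU lay 1.14 above the nearest of them. The 5FU difference was 0.46 in AMKO, or 1.38-fold, and 1.77 in Ctrl, or 3.41-fold. In Ctrl 232 genes had a larger 5FU difference, and in AMKO 2880. AMKO minus Ctrl was -1.14 after 5FU and 0.17 at Basal.

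The Ctrl 5FU array that carried the high Lgals3 value also carried high markers of myeloid and other blood cells. Of 14 monocyte and macrophage genes past the floor, the median 5FU difference was 0.36 in AMKO and 1.36 in Ctrl. Among these 14, 4 passed the floor only through the Ctrl 5FU array, so their high values there were fixed by the filter. For 6 granulocyte-monocyte progenitor genes, among them the granule enzymes Elane and Mpo, the medians were 0.06 in AMKO and 3.90 in Ctrl. For the neutrophil list they were 0.01 in AMKO and 5.44 in Ctrl, and 7 of those 14 genes passed the floor only through the Ctrl 5FU array. Csf1r, the receptor for the macrophage growth factor, had a 5FU difference of 0.39 in AMKO and 1.98 in Ctrl, where its log2 value was 7.34 in Ctrl 5FU and 5.36 in Ctrl Basal. Adgre1, which encodes the macrophage antigen F4/80, stayed under the floor in all arrays, at 4.61 in AMKO 5FU and 4.68 in AMKO Basal, and at 5.38 in Ctrl 5FU and 4.18 in Ctrl Basal. The part of these cells in the Lgals3 difference was not tested.

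**Figure D2:**
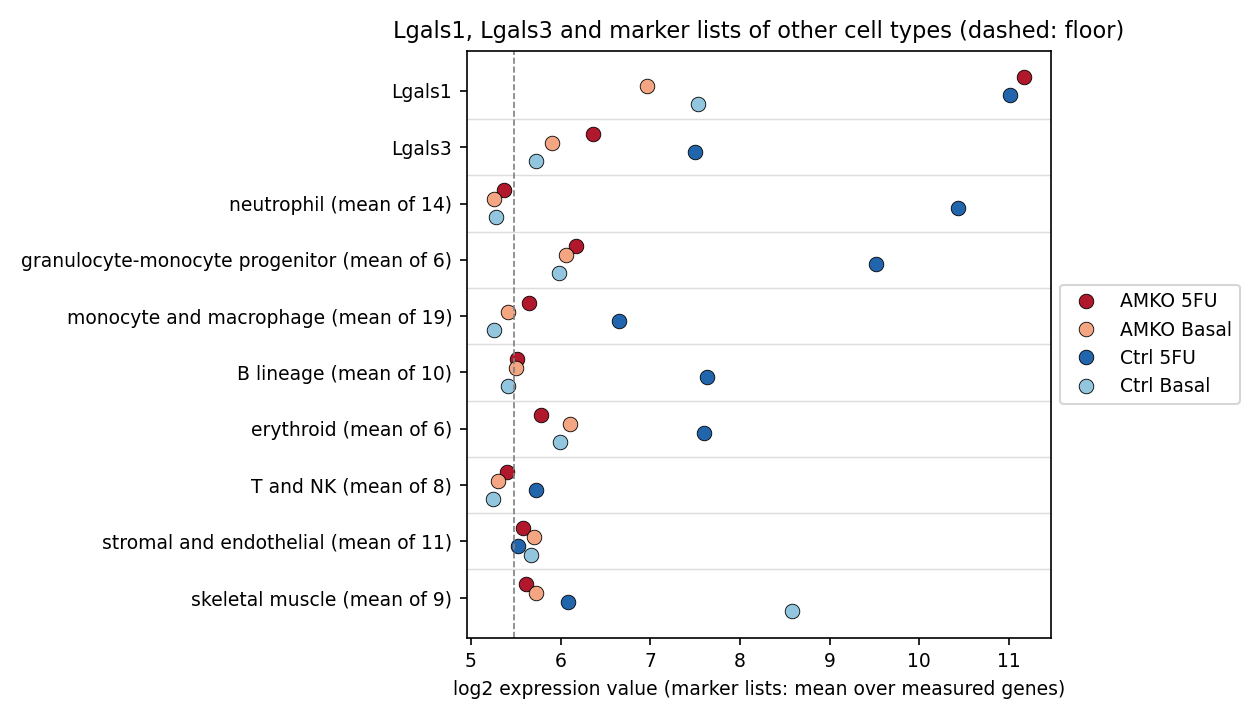
Log2 expression value (x axis) of Lgals1, Lgals3 and, for 8 marker lists, the mean over the measured genes (rows), 1 point per array, with the floor dashed. Neutrophil markers reach 10.43 in Ctrl 5FU and stay between 5.26 and 5.37 elsewhere, and Lgals1 is high in both 5FU arrays.

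Lgals8, a tandem-repeat galectin that binds glycans exposed on ruptured vesicles and recruits the autophagy machinery there, was lower after 5FU in each genotype by less than 2-fold. Its log2 value was 9.49 in AMKO 5FU and 10.05 in AMKO Basal, and 9.14 in Ctrl 5FU and 9.63 in Ctrl Basal. The 5FU difference was -0.56 in AMKO and -0.49 in Ctrl. The AMKO value was above the Ctrl value by 0.35 after 5FU and by 0.42 at Basal, and the AMKO 5FU value lay below the Ctrl Basal value, so the 5FU and Basal arrays did not overlap. Larger negative 5FU differences were found for 1563 genes in AMKO and 2086 in Ctrl.

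Lgals9, a tandem-repeat galectin known as a ligand of the T cell receptor Tim-3 and induced by interferon, was slightly higher after 5FU. Its log2 value was 11.67 in AMKO 5FU and 11.03 in AMKO Basal, and 11.68 in Ctrl 5FU and 11.22 in Ctrl Basal. Both 5FU arrays lay above both Basal arrays. The difference was 0.64 in AMKO, or 1.56-fold, and 0.46 in Ctrl, or 1.38-fold. Larger differences were found for 1861 genes in AMKO and 2310 in Ctrl, so a value of this size was common among genes. Its range over the 4 arrays, 0.65, was the smallest of the 4 galectins, against 4.21 for Lgals1, 1.77 for Lgals3 and 0.91 for Lgals8.

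At least 2-fold higher after 5FU were 1 of the 4 galectins in AMKO (Lgals1) and 2 in Ctrl (Lgals1 and Lgals3), beside 4.69% of the 14061 genes in AMKO and 5.02% in Ctrl. In both genotypes 1 galectin was higher (Lgals1), beside 1.96% of genes. None was at least 2-fold lower, beside 3.55% of genes in AMKO and 4.46% in Ctrl. The genes were picked with this contrast in view, so nothing is read from these counts. Of the genes past 2-fold in AMKO, 660 were higher and 499 lower, or 56.9% higher, a share that became 71.5% after centring each array on its median. The members' median 5FU difference was 0.55 in AMKO and 1.12 in Ctrl, against 0.03 in AMKO and 0.01 in Ctrl over all genes. The 4 values behind these medians ran from -0.56 to 4.21 in AMKO and from -0.49 to 3.48 in Ctrl, with Lgals8 below 0 in both. They come from the contrast known at the choice, so nothing is read from the medians either.

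**Figure D3:**
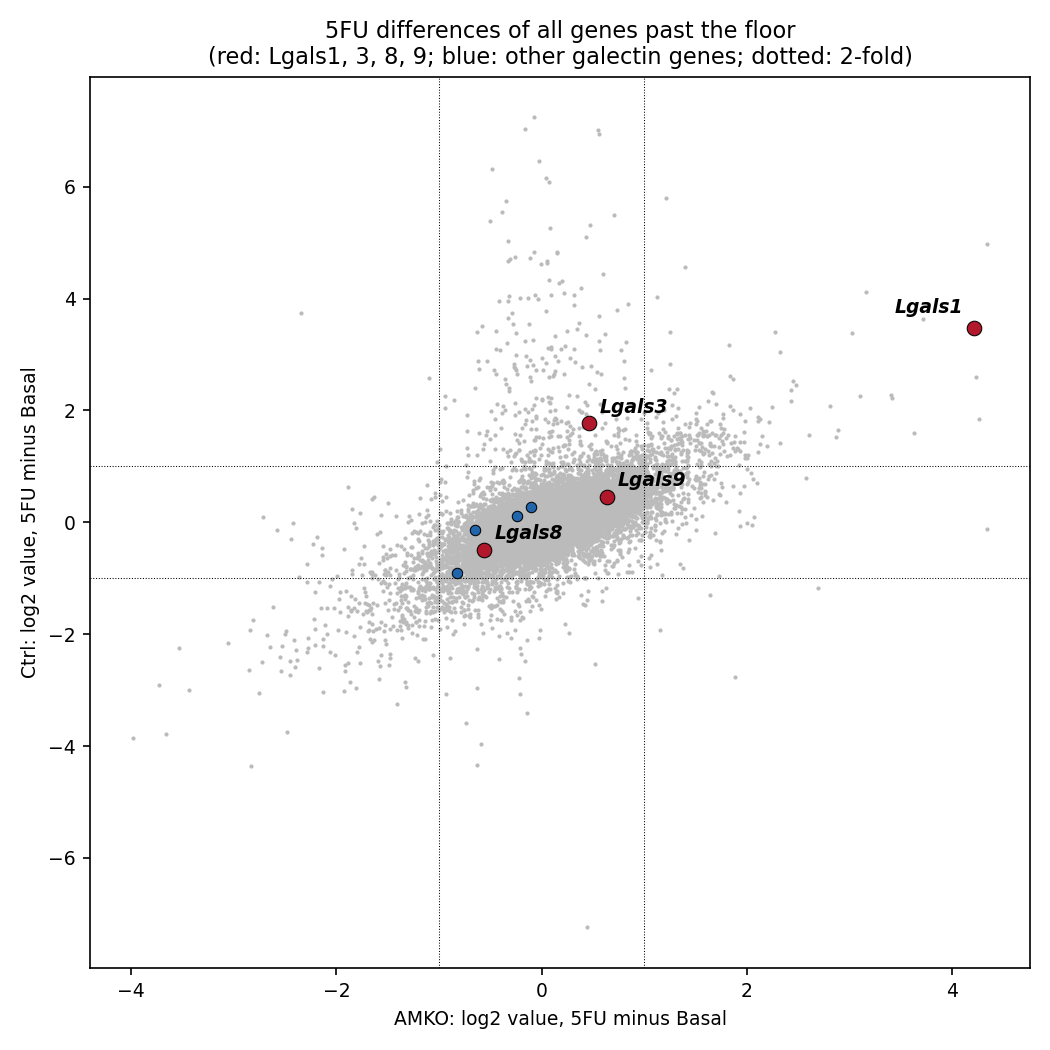
Difference of log2 values, 5FU minus Basal, in AMKO (x axis) and Ctrl (y axis) for the 14061 genes past the floor (grey), with Lgals1, Lgals3, Lgals8 and Lgals9 in red, other galectin genes in blue and 2-fold lines dotted. Lgals1 lies at 4.21 in AMKO and 3.48 in Ctrl, Lgals3 at 0.46 in AMKO and 1.77 in Ctrl, and the other galectins inside the 2-fold lines.

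AMKO and Ctrl cells were then compared at each time. After 5FU, 1 of the 4 galectins was at least 2-fold lower in AMKO (Lgals3, 2.20-fold), beside 2.63% of genes, and none was at least 2-fold higher, beside 0.74% of genes. At Basal none differed by 2-fold, beside 0.697% of genes lower and 0.228% higher. Lgals1 was lower in AMKO at Basal by 0.57, with 532 genes having a more negative value. The 5FU difference in AMKO minus that in Ctrl was 0.73 for Lgals1, -1.31 for Lgals3, -0.07 for Lgals8 and 0.18 for Lgals9. Values of -1 or lower were found for 2.94% of genes, and of the 4 galectins for Lgals3. For Lgals3 this value rests on the Ctrl 5FU array, and for all 4 genes also on the Ctrl Basal array with its high muscle markers.

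Of 7 further galectin family genes, 6 had a probe set and 4 passed the floor. Lgals4, a tandem-repeat galectin of the gut lining, had log2 values of 7.12 in AMKO 5FU and 7.94 in AMKO Basal, and 7.28 in Ctrl 5FU and 8.19 in Ctrl Basal. Both 5FU arrays lay under both Basal arrays, by 0.82 in AMKO and 0.91 in Ctrl, just short of 2-fold. Lgals6, a near-identical copy of Lgals4 known in some mouse strains, has no value here. Lgals7, known from stratified skin, lay between 5.65 and 5.97 in all arrays, and Grifin, a galectin-related protein of the lens, between 6.73 and 7.01. Lgalsl, a galectin-like gene, passed the floor only through AMKO Basal, at 5.88, with 5.23 in AMKO 5FU, 5.22 in Ctrl 5FU and 5.35 in Ctrl Basal. Lgals2 (4.28 to 4.66) and Lgals12 (4.47 to 5.11), a galectin of fat cells, stayed under the floor. None of the 4 past the floor was at least 2-fold higher or lower after 5FU. The shares over all genes were 4.69% higher and 3.55% lower in AMKO, and 5.02% higher and 4.46% lower in Ctrl. With 4 genes, nothing is read from this.

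Galectins act through glycoprotein partners, and 21 of 22 listed partners passed the floor. In AMKO 0 of the 21 were at least 2-fold higher and 0 lower after 5FU, while in Ctrl 4 were higher and 1 lower. Over all genes, 4.69% were higher and 3.55% lower in AMKO, and 5.02% higher and 4.46% lower in Ctrl. The median difference was 0.18 in AMKO and 0.33 in Ctrl. Fn1, fibronectin, had log2 values of 6.70 in AMKO 5FU and 5.86 in AMKO Basal, and 10.24 in Ctrl 5FU and 6.33 in Ctrl Basal. Nrp1, the co-receptor neuropilin-1, was at 5.06 in AMKO 5FU and 4.70 in AMKO Basal, and at 6.25 in Ctrl 5FU and 4.24 in Ctrl Basal, so that it passed the floor only through Ctrl 5FU. The 3 further partners past 2-fold in Ctrl, singled out after their values were seen, were the checkpoint protein Vsir (0.43 in AMKO and 1.93 in Ctrl), Cd7 (-0.12 in AMKO and 1.15 in Ctrl) and the receptor kinase Mertk (-0.59 in AMKO and -1.37 in Ctrl). As for Lgals3, the high Fn1, Nrp1, Vsir and Cd7 values were in the Ctrl 5FU array with its markers of other blood cells, and the part of those cells was not tested. Lgals3bp, a secreted glycoprotein that binds galectin-3, varied little, at 10.79 in AMKO 5FU and 10.85 in AMKO Basal, and 10.73 in Ctrl 5FU and 10.65 in Ctrl Basal. Havcr2, which encodes the galectin-9 receptor Tim-3, stayed under the floor at 4.41 to 4.79.

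Enzymes that build and cap the sugars bound by galectins were read from a pair of lists. Of 17 N-glycan branching and galactose extension genes past the floor, 0 were higher and 1 lower by 2-fold in AMKO, and 0 were higher and 0 lower in Ctrl, with medians of 0.22 in AMKO and 0.06 in Ctrl. The shares over all genes were 4.69% higher and 3.55% lower in AMKO, and 5.02% higher and 4.46% lower in Ctrl. Nothing is read from the counts of this list, the 1 of 17 lower in AMKO included. The one in AMKO was B3gnt8, an enzyme of N-acetyllactosamine chains, at 6.13 in AMKO 5FU and 7.40 in AMKO Basal, and at 6.99 in Ctrl 5FU and 6.95 in Ctrl Basal. B4galt6, a galactosyltransferase that makes lactosylceramide, was at 8.32 in AMKO 5FU and 7.40 in AMKO Basal, and at 8.26 in Ctrl 5FU and 8.49 in Ctrl Basal, so that its AMKO Basal value stood below the other 3. Mgat5, the branching enzyme whose products galectin-3 binds, was higher by 0.27 in each genotype, a value that was chosen for its role.

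Of 16 O-glycan, sialic acid and fucose genes, 0 were higher and 1 lower by 2-fold after 5FU in AMKO, and 3 were higher and 1 lower in Ctrl, with medians of 0.06 in AMKO and 0.16 in Ctrl. The shares over all genes were 4.69% higher and 3.55% lower in AMKO, and 5.02% higher and 4.46% lower in Ctrl. Of the 3 higher in Ctrl, 2 (St6gal1 and Galnt3) passed the floor only through Ctrl 5FU. St3gal1, which caps core 1 O-glycans with sialic acid, was the gene lower in both. Its log2 value was 10.08 in AMKO 5FU and 11.18 in AMKO Basal, and 10.15 in Ctrl 5FU and 11.35 in Ctrl Basal. Both 5FU arrays lay at least 1.03 under both Basal arrays, and the AMKO difference of -1.10 was just past 2-fold. With each array centred on its median, 0 genes of the list were 2-fold different in AMKO, St3gal1 included. Over all genes, 1.98% were at least 2-fold lower in both genotypes. St6gal1, whose alpha-2,6-linked sialic acid blocks galectin-1 binding, was at 5.18 in AMKO 5FU and 5.21 in AMKO Basal, and at 6.60 in Ctrl 5FU and 5.47 in Ctrl Basal. Fut7, a fucosyltransferase of selectin ligands, was higher by 0.25 in AMKO and 1.04 in Ctrl. Galnt3, a starter enzyme of O-glycans named after its values were seen, differed by 0.07 in AMKO and by 1.06 in Ctrl, where it reached 5.53 in Ctrl 5FU.

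Galectin-3, galectin-8 and galectin-9 mark damaged lysosomes, and 17 genes of that response passed the floor. After 5FU 1 was at least 2-fold higher in AMKO and 1 in Ctrl, and 0 were lower in either, with medians of 0.21 in AMKO and 0.19 in Ctrl. For the higher genes this is near the share over all genes, 4.69% in AMKO and 5.02% in Ctrl. The share lower was 3.55% in AMKO and 4.46% in Ctrl, and nothing is read from these counts. Trim16, a ubiquitin ligase that works with galectin-3, had log2 values of 7.30 in AMKO 5FU and 5.33 in AMKO Basal, and 6.75 in Ctrl 5FU and 6.10 in Ctrl Basal. The AMKO Basal value lay under the floor, so the AMKO difference of 1.97 is uncertain in size. Mcoln1, a lysosomal calcium channel, was lower by less than 2-fold, with differences of -0.97 in AMKO and -0.75 in Ctrl. The gene past 2-fold in Ctrl was Atg5, an autophagy factor named after its values were seen, with 0.58 in AMKO and 1.12 in Ctrl.

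**Figure D4:**
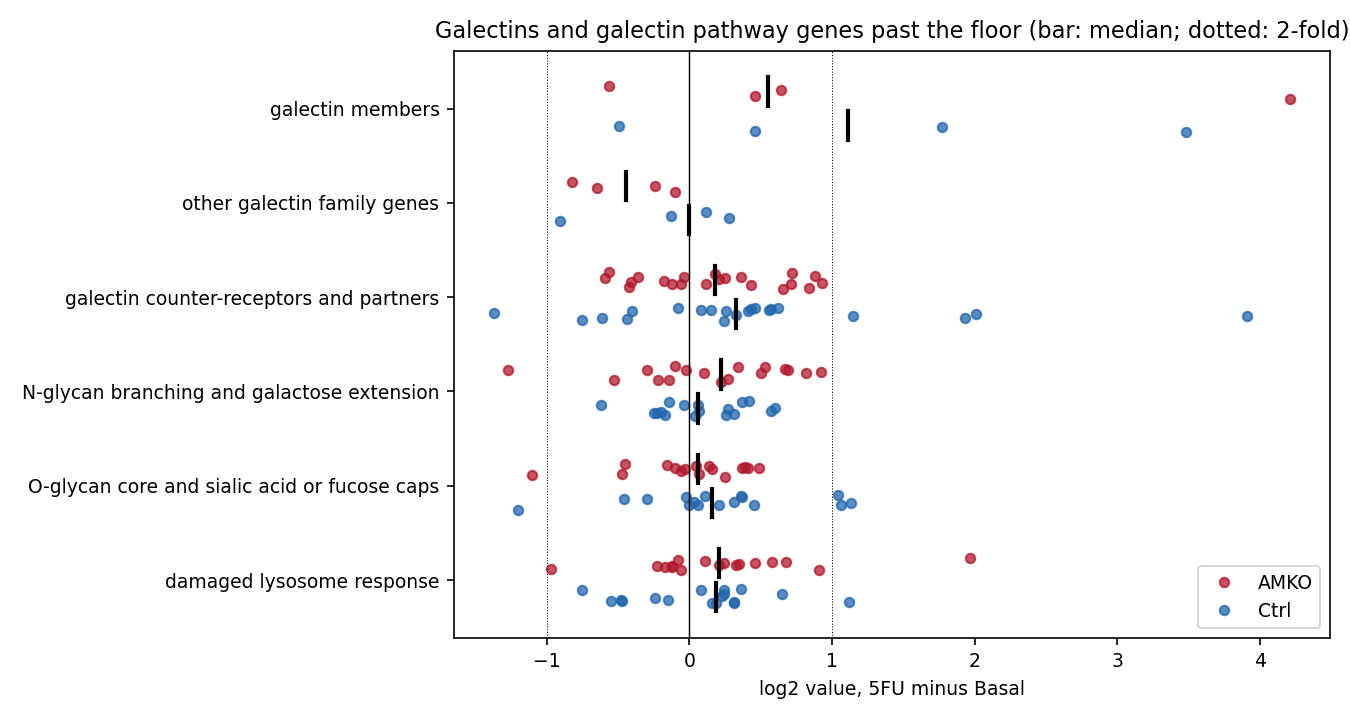
Difference of log2 values, 5FU minus Basal (x axis), for the genes past the floor of 6 lists (rows), with AMKO in red above Ctrl in blue, 1 point per gene, medians as black bars and 2-fold lines dotted. The galectin partners lie within 2-fold in AMKO, while 5 of them lie outside it in Ctrl.

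The genes nearest to each galectin over the 4 arrays were found by Euclidean distance after each gene's own mean was taken off. There were 4 points per gene and no test. Predicted genes and symbols of clones, small RNAs, and vomeronasal and olfactory receptors were left out of the ranking and of the counts below. For Lgals1 the nearest genes were Ms4a6c (distance 0.385), Plac8 (0.867), Tespa1 (0.932), the linker histone gene H1f5 (1.047) and Cd48 (1.059), and no gene lay within 0.25. Ms4a6c was at 9.06 in AMKO 5FU and 5.34 in AMKO Basal, and at 9.35 in Ctrl 5FU and 5.72 in Ctrl Basal. The nearest to Lgals3 were Trpm2, a calcium-permeable channel of myeloid cells (0.167), Csf1r (0.168), the progenitor cytokine receptor Flt3 (0.178), Siglecg, an inhibitory receptor of B cells (0.206), and Msrb1 (0.207), and 8 genes lay within 0.25. Flt3 was at 7.15 in AMKO 5FU and 6.63 in AMKO Basal, and at 8.06 in Ctrl 5FU and 6.49 in Ctrl Basal. Near Lgals8 were Grasp, Rin1, Fam189b, the kinase gene Pim1 and Cpsf7, at 0.033 to 0.079, with 242 genes within 0.25. Near Lgals9 were the proteasome gene Psma6, Lsm8, Trp53bp2, the ubiquitin-conjugating enzyme gene Ube2d3 and Ctr9, at 0.026 to 0.037, with 1001 genes within 0.25. This distance grows with the size of the differences, so the number of genes within it does not compare the galectins with each other.

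**Figure D5:**
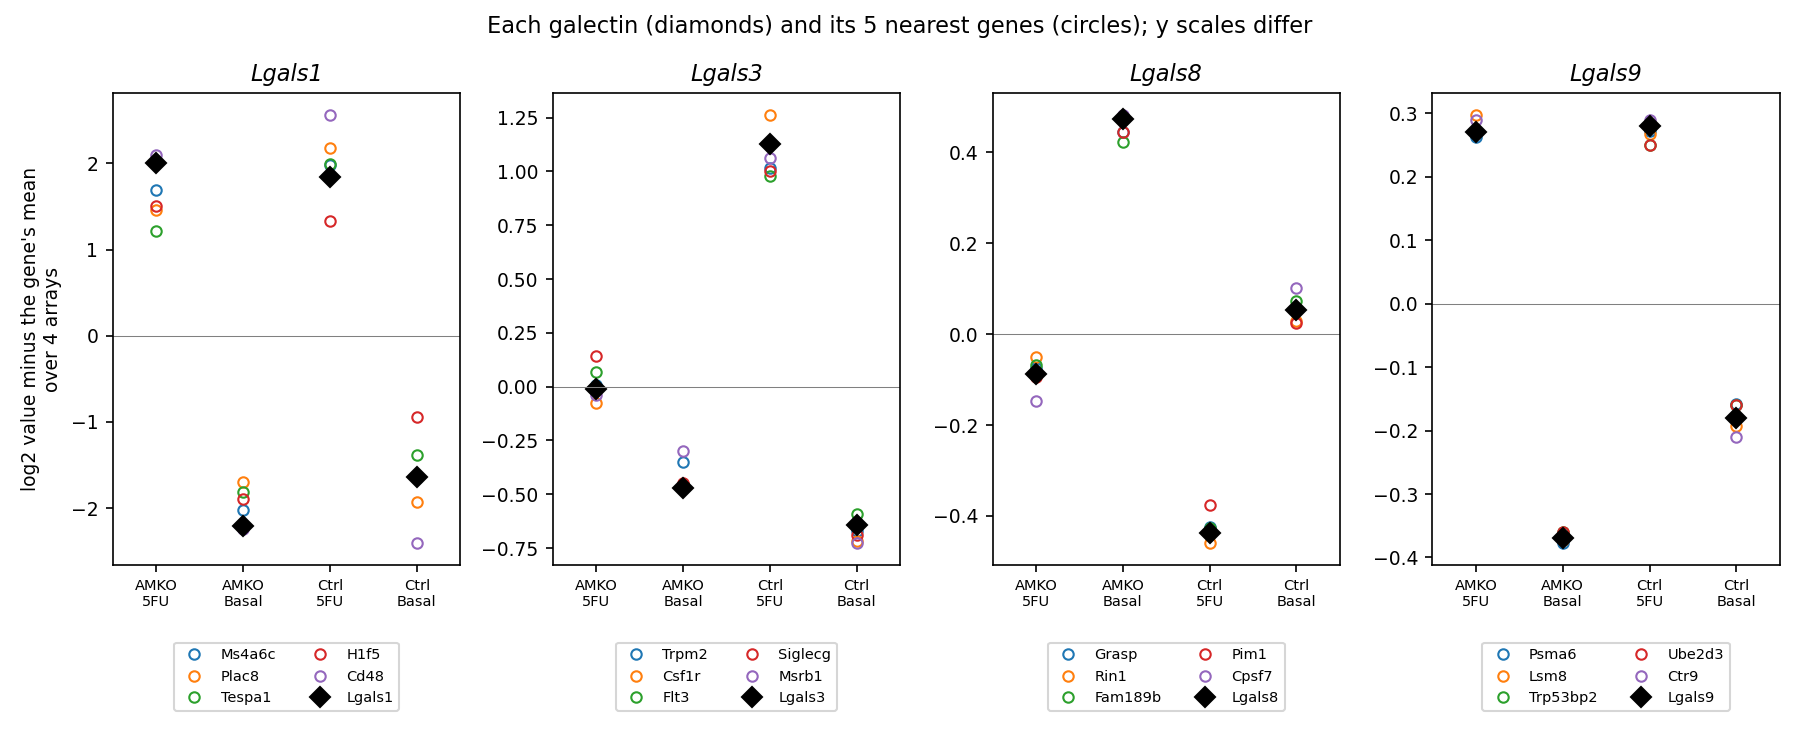
Log2 value minus each gene's own mean (y axis, scale differing between panels) in the 4 arrays (x axis) for each galectin (black diamonds) and its 5 nearest genes (circles). The genes near Lgals1 are high in both 5FU arrays, and those near Lgals3 in Ctrl 5FU.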

How the data were processed

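Expression was measured on 4 Affymetrix arrays, 1 per group. Per the labels' protocols, RNA came from a column kit and was labelled with biotin following Affymetrix. The authors' deposited table holds 1 value per probe set, read here as log2 because the values lie between 1.99 and 13.43; how they were background-corrected, normalized and scaled is not given in the sources used here, and no further scaling was applied. Arrays give no counting depth, and their number limits the precision.

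Of 34472 probe sets, 23521 named 1 gene, 1814 several and 9137 none. Symbols of 23328 were updated through the Entrez identifier with a RefSeq table of GRCm38.p6, used for names only; each of the 4 galectins had 1 such probe set. With several probe sets, the one with the highest mean was used. Genes reaching 5.475 in any array were kept. Differences are 5FU minus Basal and AMKO minus Ctrl, with 2-fold as the size counted and no test, because each group has 1 array. The counting steps were run on simulated arrays without noise, where recovery of the differences put in was fixed in advance. That run checks the code and not the reliability of counts from single arrays. Python 3.11.15, numpy 2.4.6 and pandas 2.3.3 were used.

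The members and lists were chosen with earlier results of these data known. Named genes are the family, the 5 nearest genes of each member, and in each of 4 pathway lists the genes past 2-fold in 1 direction in both genotypes or, with fewer than 2 of these, also the 2 largest by mean absolute difference. Alternatives were quantile normalization, centring on array medians, averaging probe sets, the floor left out or set at the 75th percentile (7.32), and folds of 1.5 and 3.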

Additional observations from a re-analysis of the deposited data

Results flagged for a closer look

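With 1 array per group, the results here went in opposite directions in both genotypes, or at both times, and none of these differences was tested. All of them use the Ctrl 5FU array with its high neutrophil markers and the Ctrl Basal array with its high muscle markers. AMKO minus Ctrl was 0.16 after 5FU and -0.57 at Basal for Lgals1, a difference of 0.73, and -1.14 after 5FU and 0.17 at Basal for Lgals3, a difference of -1.31. For Lgals7 the 5FU difference was -0.10 in AMKO and 0.28 in Ctrl, and AMKO minus Ctrl was -0.06 after 5FU and 0.32 at Basal, both a difference of -0.38. Grifin had 5FU differences of -0.24 in AMKO and 0.12 in Ctrl, and -0.08 after 5FU and 0.28 at Basal for AMKO minus Ctrl, a difference of -0.36.

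Of the 71 pathway genes past the floor, 16 had opposite signs of the 5FU difference in AMKO and Ctrl. Opposite signs of AMKO minus Ctrl after 5FU and at Basal were found for 33. The same counts over all genes were not made, so nothing is read from these as a trait of the pathway genes. Among the 9 of them named by rule, the 5FU difference had opposite signs for 3. It was -1.27 in AMKO and 0.04 in Ctrl for B3gnt8 (difference -1.31), 0.92 in AMKO and -0.23 in Ctrl for B4galt6 (1.15), and -0.03 in AMKO and 1.13 in Ctrl for St6gal1 (-1.16). AMKO minus Ctrl had opposite signs after 5FU and at Basal for 5 of these 9. It was -1.19 after 5FU and 0.46 at Basal for Nrp1 (-1.65), and -0.86 after 5FU and 0.45 at Basal for B3gnt8. It was 0.06 after 5FU and -1.09 at Basal for B4galt6, -0.36 after 5FU and 0.43 at Basal for Fut7 (-0.79), and 0.55 after 5FU and -0.77 at Basal for Trim16 (1.32).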

How the results depend on the processing

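No paired analysis was possible because each group has 1 array, and leaving an array out leaves no comparison of its pair. Over quantile normalization, centring on array medians and averaging probe sets, 58 of 60 member values kept their sign and none past 2-fold turned. Each member had 1 probe set, so averaging could not change its values, and that part of the 60 was fixed in advance. The largest move was 0.2. The 2 values that did not keep their sign were for Lgals9 and Lgals8. They were Lgals9 in AMKO minus Ctrl after 5FU (0.02 after quantile normalization) and Lgals8 in the difference of the 5FU differences (0.00 after centring). Centring moved the median AMKO 5FU difference of all genes by 0.12. Moves of at least 0.1 were as follows, and the cause was not tested for quantile normalization. The AMKO 5FU differences were 4.09 for Lgals1, 0.56 for Lgals3, -0.76 for Lgals8 and 0.46 for Lgals9 after quantile normalization, and 4.32, 0.57, -0.45 and 0.75 after centring. Quantile normalization gave -0.60 for Lgals8 and 0.36 for Lgals9 in Ctrl, -0.08 for Lgals9 in AMKO minus Ctrl at Basal, and -1.20 for Lgals3 in the difference of the 5FU differences. Among the other galectins, the AMKO 5FU difference of Lgals7 turned to 0.01 after centring.

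Without both Ctrl arrays, chosen after seeing the data, 1 member was at least 2-fold higher after 5FU, against 2 in either genotype. This is the AMKO count already given, so it was fixed in advance and checks nothing further. At 1.5-fold, 2 members were higher in AMKO. At 1.5-fold, 2161 genes were higher and 1475 lower after 5FU in AMKO, and 1680 and 1672 in Ctrl; for AMKO minus Ctrl 583 and 749 after 5FU, and 353 and 510 at Basal. At 3-fold, 137 were higher and 136 lower after 5FU in AMKO, and 289 and 193 in Ctrl; for AMKO minus Ctrl 17 and 209 after 5FU, and 6 and 30 at Basal. With the floor at the 75th percentile, which leaves fewer genes, 407 genes were lower after 5FU in Ctrl, 51 higher and 209 lower for AMKO minus Ctrl after 5FU, and 19 and 55 at Basal; with no floor 51 were higher at Basal. Centring gave 22 higher and 135 lower at Basal, or 14.0% higher against 24.6%. Pathway genes past 2-fold numbered 3 in AMKO and 10 in Ctrl, 5 in AMKO after centring, 17 in each at 1.5-fold, 1 in AMKO and 3 in Ctrl at 3-fold, and 5 in Ctrl with the higher floor. Of 92 comparisons for single lists and other galectins, 25 moved. A turn past 2-fold was not possible among them, because list counts have no sign and no other galectin was past 2-fold. Averaging could not change the other galectins either, since each one measured had 1 probe set.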
